A study of Arabidopsis thaliana with 4 samples.

Results

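The sporopollenin synthesis genes are 9 Arabidopsis genes whose products make the building blocks of the outer pollen wall. They were picked by gene identifier, with earlier results of these data already known. The 9 were CYP703A2 (AT1G01280), CYP704B1 (AT1G69500), ACOS5 (AT1G62940), PKSA (AT1G02050), PKSB (AT4G34850), TKPR1 (AT4G35420), TKPR2 (AT1G68540), MS2 (AT3G11980) and ABCG26 (AT3G13220). All 9 were present among the 13311 genes of the 3 deposited gene tables, and all 9 were among the 7981 genes, each averaging 10 counts or more, that were tested between genotypes. The tables list PKSA as LAP6, PKSB as LAP5, TKPR1 as DRL1, TKPR2 as CCRL6, MS2 as FAR2 and CYP703A2 as CYP703.

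Sporopollenin is the resistant polymer of the exine, the sculptured outer layer of the pollen wall, and its precursors are made in the tapetum, the cell layer of the anther that surrounds the developing pollen. In the tapetum, cytochrome P450 enzymes hydroxylate fatty acids, an acyl-CoA synthetase activates them, type III polyketide synthases extend them into pyrones and reductases convert the pyrones into polyhydroxylated products. A plastid reductase supplies fatty alcohols, and a transporter of the ABCG family is thought to carry precursors out of the tapetum cell. Loss of enzymes of this pathway is known to leave a defective, thin or missing exine, in some cases with male sterility or reduced fertility.

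The libraries were of mRNA from the inflorescences of plants 5 weeks old, either wild-type Col-0 or the mutant ndx1-4, which carries the T-DNA insertion WiscDsLox344A04 in the homeodomain gene NDX. Each genotype had 2 libraries, each made from RNA of 5 inflorescences of different plants mixed in equal amounts. The methods call the libraries of a genotype independent biological replicates. The mutant was represented by this insertion line alone, and each library was a pool, so the spread between plants was averaged within it. The inflorescence holds flowers of many ages, and the tapetum is a small and short-lived part of it, so that fewer tapetum cells and less RNA per tapetum cell cannot be told apart.

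Estimated counts of NDX, the targeted gene, were 430 and 525 in Col-0, far above the 73 and 108 of the ndx1-4 libraries, as labelled. The genes listed in the tables held between 10726926 and 13814929 estimated counts per library, which is part of each library. Replicates of a genotype differed on the log2 scale with an SD of 0.378 (Col-0) and 0.350 (ndx1-4) across the 7057 genes whose mean was 50 counts or more. All 5 floral organ genes checked (AG, AP1, AP3, PI and SEP3) were detected in every library, with 667 to 2654 counts.

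The 9 genes lie on chromosomes 1, 3 and 4 (TAIR10), and all are protein-coding. CYP703A2 spans positions 112263 to 113947 of chromosome 1 on the plus strand, in 2 exon blocks. CYP704B1 spans 26123940 to 26126057 and ACOS5 spans 23310532 to 23312795 of the same chromosome and strand, each in 6 exon blocks. PKSA spans 359117 to 360746 on the minus strand of chromosome 1 in 2 exon blocks. TKPR2 spans 25719958 to 25721549 on the plus strand of chromosome 1 in 3 exon blocks. PKSB spans 16608204 to 16609829 on the plus strand of chromosome 4 in 2 exon blocks, and TKPR1 spans 16833933 to 16835619 on the minus strand of that chromosome in 6. MS2 spans 3814231 to 3817117 on the plus strand and ABCG26 spans 4247675 to 4250703 on the minus strand of chromosome 3, each in 9 exon blocks.

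Some of the 9 genes share bases with a neighbour, and no source used here says that reads were counted by strand. PKSB overlaps AT4G34840 on its own strand by 89 bases and AT4G34860 on the opposite strand by 84 bases. TKPR1 overlaps AT4G35410 by 70 bases and ABCG26 overlaps AT3G13210 by 172 bases, both on the opposite strand. Reads that fall in these bases cannot be assigned with certainty. Shared sequence is the other source of doubt: the closest gene to PKSA, PKSC (AT4G00040), was 80.5% identical to it over 1116 exonic bases, and the closest gene to TKPR2, AT1G25460, was 75.4% identical over 862. AT1G25460 had only 3 or 4 counts in each library, whereas PKSC had 1479 and 2117 counts in Col-0, against 1908 and 1963 in ndx1-4, which is a log2 fold change of -0.02 ± 0.12 (SE).

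The sequence before the annotated start was read for each gene, 250 bases long and ending at the last base before the gene. The windows of MS2 and TKPR2 are shown because these genes had the highest and the lowest genotype difference of the 9, and those of CYP704B1 and TKPR1 because they held the most matches to the MYB pattern below. Capitals mark matches to CANNTG, the E-box bound by bHLH proteins, to ACCNANC, a pattern bound by R2R3-MYB proteins, and to TATAAA, the TATA box, on either strand. Bases are those of the RefSeq genome TAIR10.1, 5′ to 3′ on the strand of the gene, at chr3:3813981-3814230 (plus) for MS2, chr1:25719708-25719957 (plus) for TKPR2, chr1:26123690-26123939 (plus) for CYP704B1 and chr4:16835620-16835869 (minus) for TKPR1.
MS2: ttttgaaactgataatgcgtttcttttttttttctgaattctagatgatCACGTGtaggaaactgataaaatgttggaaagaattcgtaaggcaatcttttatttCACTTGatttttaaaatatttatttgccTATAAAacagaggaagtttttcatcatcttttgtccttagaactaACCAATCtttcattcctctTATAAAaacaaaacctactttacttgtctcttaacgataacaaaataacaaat
TKPR2: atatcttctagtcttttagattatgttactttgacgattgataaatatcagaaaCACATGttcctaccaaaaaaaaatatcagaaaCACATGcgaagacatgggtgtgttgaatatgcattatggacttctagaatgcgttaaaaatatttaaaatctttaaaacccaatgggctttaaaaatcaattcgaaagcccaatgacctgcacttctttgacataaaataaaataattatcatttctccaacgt
CYP704B1: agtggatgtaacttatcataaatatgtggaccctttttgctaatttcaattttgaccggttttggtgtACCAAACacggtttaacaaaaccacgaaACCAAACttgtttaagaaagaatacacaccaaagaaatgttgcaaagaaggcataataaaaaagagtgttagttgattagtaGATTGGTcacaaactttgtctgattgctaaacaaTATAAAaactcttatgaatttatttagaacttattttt
TKPR1: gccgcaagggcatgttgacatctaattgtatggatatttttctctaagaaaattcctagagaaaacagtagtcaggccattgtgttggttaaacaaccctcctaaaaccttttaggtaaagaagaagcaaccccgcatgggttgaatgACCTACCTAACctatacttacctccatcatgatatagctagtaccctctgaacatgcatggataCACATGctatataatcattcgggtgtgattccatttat

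CANNTG occurred in the windows of 6 of the 9 genes and in 55.3% of the 27443 windows of protein-coding genes, ACCNANC in 4 of the 9 and in 27.8% of all windows, and TATAAA in 3 of the 9 and in 47.3% of all windows. MS2 was the only one of the 9 with all 3 patterns. The windows of CYP703A2 and PKSB held none of these letters, and that of PKSB lies within its neighbour AT4G34840. In the window of TKPR1 the 2 ACCNANC matches overlap each other. These matches describe letters in a window and do not show that a protein binds there.

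The first question was how strongly each gene was expressed in the inflorescence. Levels are given as FPKM, counts adjusted for transcript length and library depth, which the authors scaled within each table, so the order was read within a genotype. In Col-0, PKSA was highest, with 47.5 and 49.7 FPKM (mean 48.6 ± 1.60, SD, n = 2). TKPR1 followed with 46.6 and 36.6, and MS2 with 32.9 and 32.6. ABCG26 was lowest with 7.59 and 8.48 FPKM, so the mean levels spanned 6.05-fold. CYP703A2, with 11.3 and 11.4, and CYP704B1, with 16.4 and 15.5, stood next above the transporter. The remaining levels lay in the middle and were not all separable: TKPR2 had 26.8 and 25.8 FPKM, ACOS5 29.1 and 23.5, and PKSB 23.7 and 20.4. The ranges of TKPR2 and ACOS5 overlapped, as did those of ACOS5 and PKSB, and every other pair of neighbours in the order was apart.

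In ndx1-4 the order was PKSA, MS2, TKPR1, ACOS5, PKSB, TKPR2, CYP704B1, CYP703A2 and ABCG26, the same in both libraries. PKSA had 55.2 and 70.7 FPKM and MS2 had 51.5 and 60.9, and only these neighbours overlapped. TKPR1 had 43.3 and 42.3 FPKM, ACOS5 32.8 and 33.6, PKSB 22.5 and 23.7, and TKPR2 21.9 and 22.3. CYP704B1 had 18.8 and 20.5 FPKM, CYP703A2 12.0 and 14.8, and ABCG26 7.74 and 7.48. The mean levels spanned 8.27-fold. PKSA was thus at the top and the hydroxylases and the transporter at the bottom in both genotypes, while MS2 ranked above TKPR1 only in ndx1-4.

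**Figure D1:**
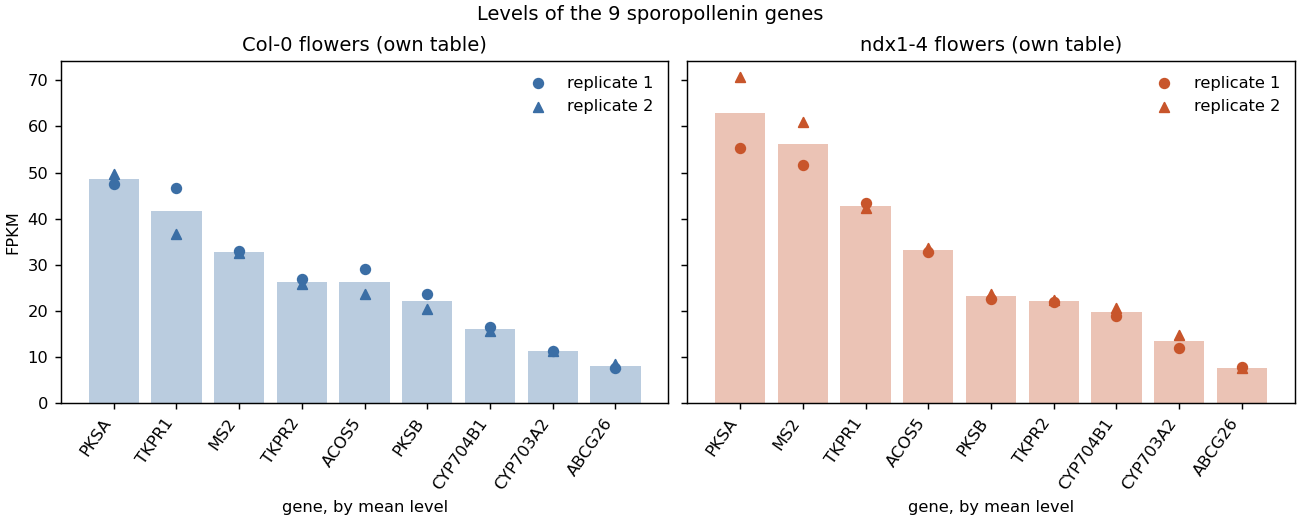
FPKM (vertical axis) of the 9 genes in Col-0 (left) and ndx1-4 (right), ordered by mean level; bars are means, circles and triangles are replicates 1 and 2, and each genotype was scaled in its own table. PKSA was highest and ABCG26 lowest in both, and MS2 stood below TKPR1 in Col-0 and next to PKSA in ndx1-4.

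The second question was whether the levels differed between ndx1-4 and Col-0. None of the 9 passed the test, edgeR's quasi-likelihood test at a Benjamini-Hochberg adjusted p below 0.01 over all 7981 genes. The background was low as well, at 7 genes or 0.0877%, all 7 of them higher in ndx1-4. That background depends on which genes were tested. They came from both comparisons of flowers with seedlings, which held only 232 of the 414 genes that the authors called between genotypes. With the genes of the genotype comparison added, edgeR called 22, 18 of them higher in ndx1-4, and 0 of the 9. MS2 came closest and was 1.73-fold higher in ndx1-4. It alone of the 9 was among the genes that the authors called between genotypes with DESeq2, at their adjusted p below 0.01. Values below are scaled counts, estimated counts divided by the library scaling relative to Col-0 replicate 1, so that libraries can be compared for 1 gene, and fold changes are log2 of ndx1-4 over Col-0 with their SE. The edgeR SE was back-calculated, as the size of the log2 fold change over the square root of the test's F statistic, while that of DESeq2 is its own.

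The hydroxylases act at the start of the pathway. CYP703A2, an in-chain hydroxylase of lauric acid, had 293 and 298 scaled counts in Col-0, against 312 and 388 in ndx1-4. Its ndx1-4 libraries both lay above Col-0, the first by little, and the log2 fold change of 0.25 ± 0.15 (edgeR adjusted p = 0.400) was 0.080 without ndx1-4 replicate 2 and 0.39 without ndx1-4 replicate 1. CYP704B1, an omega-hydroxylase of long-chain fatty acids, had 357 and 335 scaled counts in Col-0, against 403 and 456 in ndx1-4. Its genotypes did not overlap, with a log2 fold change of 0.31 ± 0.12 (edgeR adjusted p = 0.246).

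ACOS5, the acyl-CoA synthetase that activates the hydroxylated fatty acids, had 779 and 634 scaled counts in Col-0, against 880 and 915 in ndx1-4. The ndx1-4 libraries both lay above, and the Col-0 libraries differed from each other by more than the gap between genotypes. The log2 fold change was 0.35 ± 0.12 (edgeR adjusted p = 0.226), and 0.20 without Col-0 replicate 2.

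PKSA and PKSB are type III polyketide synthases that extend the activated fatty acids into alkylpyrones. PKSA had 1158 and 1231 scaled counts in Col-0, against 1362 and 1738 in ndx1-4. It was higher in both ndx1-4 libraries, mostly in replicate 2, and its log2 fold change of 0.38 ± 0.13 (edgeR adjusted p = 0.235) was 0.19 without that library. PKSB had 533 and 463 scaled counts in Col-0, against 511 and 536 in ndx1-4. Its genotypes overlapped, at 0.07 ± 0.11 (edgeR adjusted p = 0.734).

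TKPR1 and TKPR2 reduce the tetraketide pyrones made by the polyketide synthases. TKPR1 had 777 and 614 scaled counts in Col-0, against 724 and 715 in ndx1-4, so that both ndx1-4 libraries lay between the Col-0 libraries. Its log2 fold change was 0.05 ± 0.13 (edgeR adjusted p = 0.855). TKPR2 had 406 and 372 scaled counts in Col-0, against 323 and 354 in ndx1-4. TKPR2 was the only one of the 9 with both ndx1-4 libraries below both Col-0 libraries, at a log2 fold change of -0.20 ± 0.12 (edgeR adjusted p = 0.395).

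MS2, the plastid fatty acyl reductase that makes fatty alcohols, had 1051 and 1255 estimated counts in Col-0, against 1836 and 2598 in ndx1-4, or 1051 and 1044 against 1642 and 1984 scaled counts. The Col-0 libraries were nearly equal, and both ndx1-4 libraries lay well above them. The log2 fold change was 0.79 ± 0.11, with an unadjusted p of 0.000857 and an adjusted p of 0.0808 in edgeR, rank 82 of the genes by p. DESeq2, which shares the spread between genes in another way, gave 0.78 ± 0.16 and an adjusted p of 7.76e-05, and edgeR with the replicate number as a block gave an adjusted p of 0.00504. A larger log2 fold change was found for 4.70% of the genes tested. Without each library in turn the log2 fold change of MS2 was between 0.65 and 0.92. Those fits leave 1 library in a genotype, so they cannot decide whether MS2 passes the test, and only the size of the change is given.

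ABCG26, the ABC transporter of the tapetum, had 283 and 317 scaled counts in Col-0, against 288 and 283 in ndx1-4. The genotypes overlapped, and the log2 fold change was -0.07 ± 0.12 (edgeR adjusted p = 0.779).

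**Figure D2:**
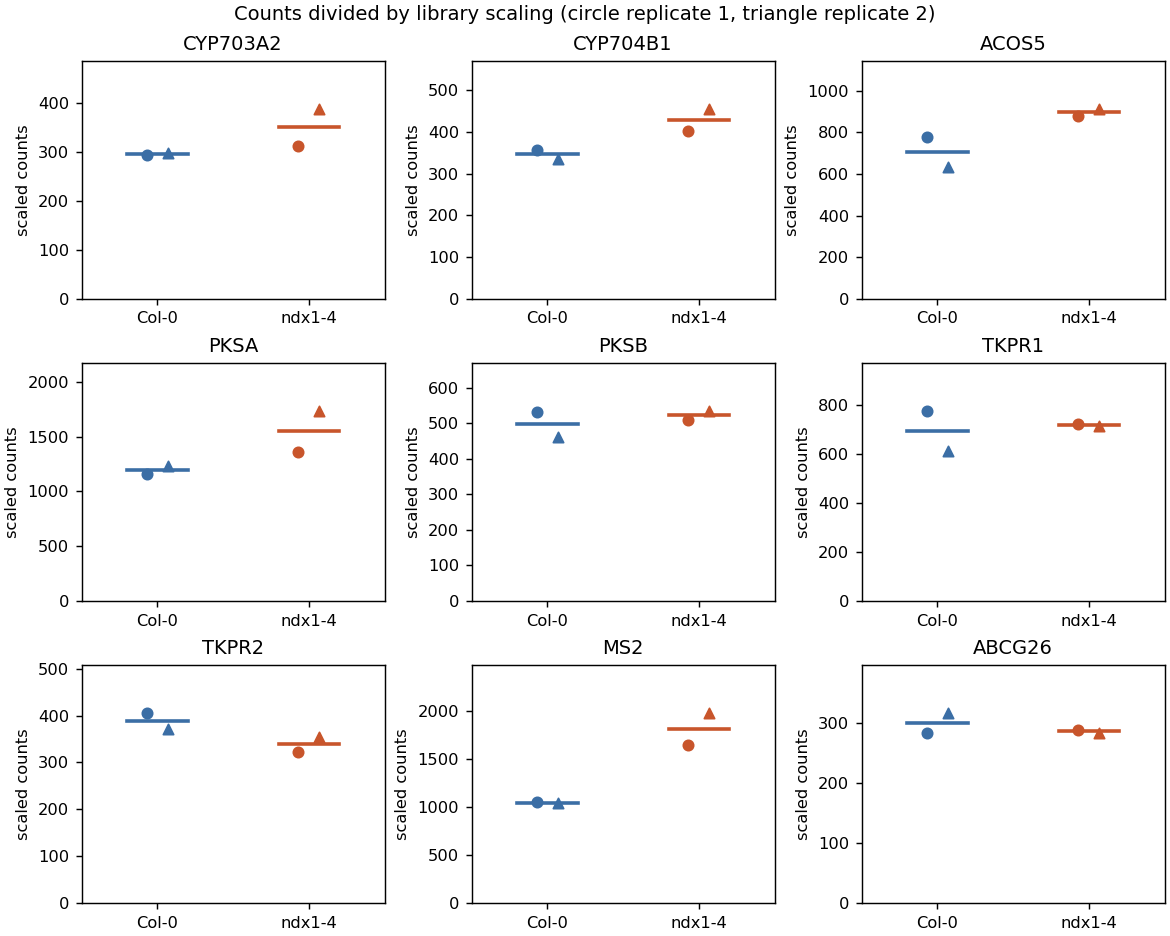
Scaled counts of the 9 genes in the 4 libraries, with Col-0 in blue, ndx1-4 in orange and 1 point per library. MS2 had 1051 and 1044 in Col-0, against 1642 and 1984 in ndx1-4, whereas PKSB, TKPR1 and ABCG26 overlapped between genotypes.

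Across the 9 genes, 7 had a log2 fold change above 0 and the median was 0.25, beside 0.01 over all genes tested. The median rested largely on ndx1-4 replicate 2: it was 0.08 without that library and 0.37 without ndx1-4 replicate 1. The ndx1-4 libraries both lay above the Col-0 libraries in 5 of the 9 (CYP703A2, CYP704B1, ACOS5, PKSA and MS2), against a background of 27.9% of genes, and both below in 1 of the 9 (TKPR2), against 25.6%. An unadjusted p below 0.05 in edgeR was reached by 4 of the 9 (CYP704B1, ACOS5, PKSA and MS2), all higher in ndx1-4, where 19.3% of all genes reached it and 10.6% did so with higher levels in ndx1-4. That count was 2 with TMM scaling, 2 in DESeq2 and 1 with scaling to total counts. Over all genes, 1539 reached it in the main fit, 1560 with TMM, 1221 in DESeq2 and 1519 with total counts. The count of the 9 stayed at 4 without the count minimum and with that minimum raised to 50. It was also 4 after genes of the genotype comparison were added, and when the replicate number was a block. Fits that leave out a library keep only 1 library in a genotype, so they cannot decide this count. DESeq2 called 1 of the 9 at an adjusted p below 0.01, MS2, against 2.59% of the 7671 genes to which it gave an adjusted p.

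**Figure D3:**
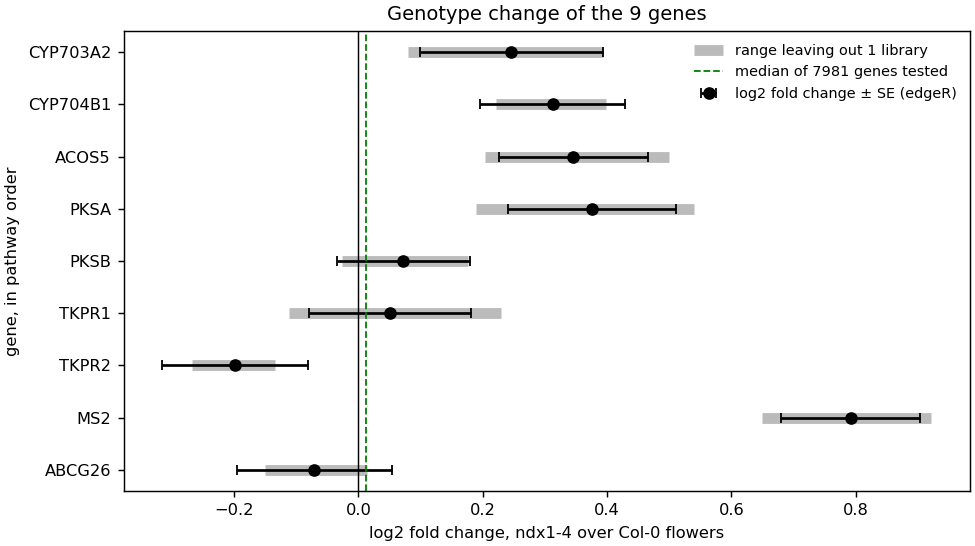
log2 fold change of ndx1-4 over Col-0 (edgeR) for the 9 genes, with error bars of 1 SE, grey bars for the range when each library is left out, and the median of the 7981 genes tested as a dashed line at 0.01. MS2 stood apart at 0.79 ± 0.11, and TKPR2 was lowest at -0.20 ± 0.12.

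Ratios within a library do not depend on how libraries are scaled, and they were compared next as a description. The counts of MS2 over the summed counts of the other 8 genes were 0.229 and 0.245 in Col-0, against 0.342 and 0.368 in ndx1-4, so that MS2 took a larger part of the pathway's counts in both ndx1-4 libraries, a difference that was not tested. The ratio of MS2 to TKPR2 was 2.59 and 2.81 in Col-0, against 5.09 and 5.60 in ndx1-4, and that of MS2 to PKSB was 1.97 and 2.25 against 3.22 and 3.70. MS2 was higher and TKPR2 lower in both ndx1-4 libraries, so the ratio of these 2 genes was bound to be apart. MS2 had fewer counts than PKSA in Col-0, at ratios of 0.908 and 0.847, and more in ndx1-4, at 1.21 and 1.14. Some ratios without MS2 were apart too. That of PKSA to TKPR2 was 2.85 and 3.31 in Col-0, against 4.22 and 4.91 in ndx1-4. That of TKPR1 to TKPR2 was 1.91 and 1.65 against 2.24 and 2.02. The ratio of PKSA to PKSB, 2.17 and 2.66 against 2.67 and 3.24, was barely apart. The ratio of CYP704B1 to CYP703A2 was 1.22 and 1.13 in Col-0, against 1.29 and 1.18 in ndx1-4, which overlap.

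The share of each gene in the summed FPKM of the 9 in its library takes transcript length into account as well. MS2 held 13.6% and 14.6% in Col-0, against 19.4% and 20.6% in ndx1-4, while TKPR2 held 11.1% and 11.5% in Col-0, against 8.24% and 7.52% in ndx1-4. TKPR1 (19.3% and 16.3%, then 16.3% and 14.3%), PKSB (9.80% and 9.12%, then 8.47% and 7.99%) and ABCG26 (3.14% and 3.78%, then 2.91% and 2.52%) also had smaller shares in both ndx1-4 libraries, TKPR1 by less than 0.1 percentage points between its nearest libraries. Shares sum to 100% by construction, so a larger share of MS2 lowers the others. The shares of CYP703A2, CYP704B1, ACOS5 and PKSA overlapped between genotypes, as CYP704B1 did with 6.78% and 6.94% in Col-0, against 7.09% and 6.91% in ndx1-4.

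**Figure D4:**
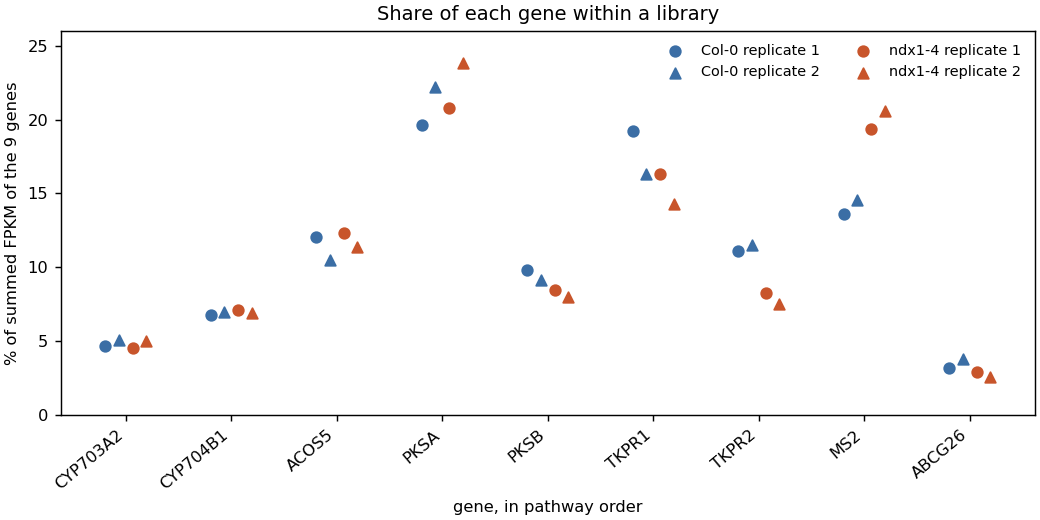
Share of each gene in the summed FPKM of the 9 genes of its library, in percent, with Col-0 in blue, ndx1-4 in orange, circles for replicate 1 and triangles for replicate 2. MS2 went from 13.6% and 14.6% in Col-0 to 19.4% and 20.6% in ndx1-4, and TKPR2 from 11.1% and 11.5% to 8.24% and 7.52%.

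Other genes of the pollen wall and the anther were read from the same fit to place the 9 genes beside them. No gene of any of these lists passed the edgeR test at an adjusted p below 0.01. Of 18 further genes of the exine and the callose wall, 10 were tested, with a median log2 fold change of -0.06. An unadjusted p below 0.05 in edgeR was reached by 1 of the 10, where 19.3% of all genes reached it in either direction. The 2 most abundant were A6, a tapetum glucanase-like protein, at -0.04 ± 0.12, and KNS4, a glycosyltransferase of the primexine, at 0.13 ± 0.12. The gene with the small p was LAP3, needed for a regular exine, with 725 and 951 counts in Col-0, against 1083 and 1516 in ndx1-4. Its log2 fold change was 0.49 ± 0.12 (edgeR adjusted p = 0.148).

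Of 12 tapetum regulators, 10 were tested, with a median of 0.20 and 8 of them above 0. Here too 1 of the 10 had an unadjusted p below 0.05 in edgeR, beside 19.3% of all genes. EMS1, a receptor kinase needed to form the tapetum, was at -0.34 ± 0.18, and AMS, a bHLH protein known to bind promoters of sporopollenin genes, was at 0.15 ± 0.09. MS1, a PHD-finger protein of the late tapetum, had 105 and 147 counts in Col-0, against 234 and 289 in ndx1-4. Its log2 fold change of 0.92 ± 0.17 had an adjusted p of 0.113 in edgeR and 0.0269 in DESeq2. All 7 tapetum products were tested, with a median of 0.10. Their summed scaled counts, 17029 and 29251 in Col-0, against 27031 and 21449 in ndx1-4, overlapped, and the most abundant, ATA20, spread from 9573 to 21800 counts within Col-0 alone. ATA20 was at 0.17 ± 0.32 and ATA27, the next most abundant, at -0.17 ± 0.23.

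Late pollen genes mark grains near maturity and were read beside the 9 genes. All 14 were tested and 12 were above 0, with a median of 0.50 and 2 at an unadjusted p below 0.05, both higher in ndx1-4 (AGP11 and ANX2), a share near the 10.6% of all genes. Their summed scaled counts were 24940 and 23166 in Col-0, against 37631 and 26234 in ndx1-4, so that both ndx1-4 libraries lay above. VGD1, a pollen pectin methylesterase, was at 0.45 ± 0.18 (edgeR adjusted p = 0.272), and PPME1, another of that family, was at 0.33 ± 0.27. Of 5 ovule and carpel genes, 4 were tested and all 4 were below 0, with a median of -0.41. Of these 4, 2 had an unadjusted p below 0.05 in edgeR, which 19.3% of all genes reached in either direction. Among them SHP1 was at -0.53 ± 0.19, and STK, which specifies ovules, had 730 and 822 counts in Col-0, against 328 and 582 in ndx1-4, which is a log2 fold change of -0.93 ± 0.21 with an adjusted p of 0.132 in edgeR and 0.00709 in DESeq2. STK was also among the genes that the authors called between genotypes. The 5 floral organ genes had a median of -0.11, with PI at 0.27 ± 0.07 and SEP3 at -0.11 ± 0.09. An unadjusted p below 0.05 in edgeR was reached by 2 of the 5, AP1 and PI, both higher in ndx1-4, as were 10.6% of all genes. AP1, which specifies sepals and petals, was furthest from 0 at 0.42 ± 0.09. No list had a tested gene at 3 counts or fewer in every library. The late pollen list was highest in ndx1-4 replicate 1, whereas the summed scaled counts of the 9 sporopollenin genes, 5637 and 5308 in Col-0, against 6446 and 7369 in ndx1-4, were highest in replicate 2. The part of these lists in the values of the 9 genes was not tested.

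**Figure D5:**
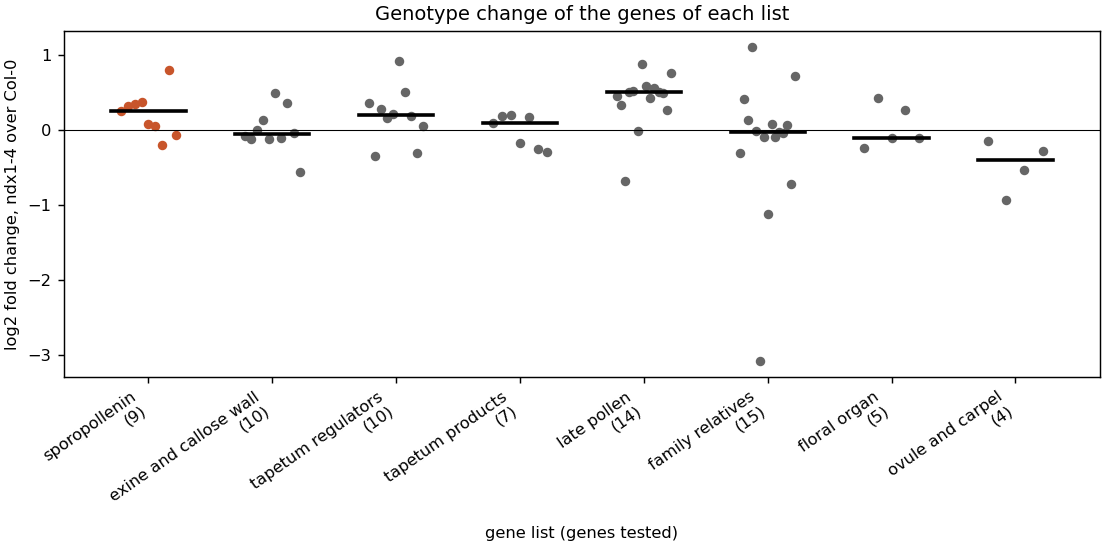
log2 fold change of ndx1-4 over Col-0 (edgeR) of each tested gene, by gene list, 1 point per gene with the median of the list as a bar. The medians were 0.25 for the 9 sporopollenin genes, 0.20 for tapetum regulators, 0.50 for late pollen genes and -0.41 for ovule and carpel genes, beside 0.01 for all genes tested.

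Relatives of the 9 genes in the same enzyme or transporter families were read in the same way. Of 21 relatives, 15 were tested, with a median of -0.03, and 2 had an unadjusted p below 0.05 in each direction, where 19.3% of all genes reached it in either direction, so the count was near the background. ABCG11, a cuticle transporter related to ABCG26, was at -0.04 ± 0.12, and PKSC is given above. CYP704A2, the closest gene to CYP704B1, matched it over only 188 exonic bases, at 71.8% identity. CYP704A2 had 48 and 74 counts in Col-0, against 131 and 156 in ndx1-4, which is a log2 fold change of 1.10 ± 0.23 (edgeR adjusted p = 0.124). ABCG15, also higher in ndx1-4, had 256 and 277 counts in Col-0, against 392 and 583 in ndx1-4 (log2 fold change 0.71 ± 0.16, edgeR adjusted p = 0.137). DESeq2 called 2 of the 15 relatives tested, against 2.59% of all genes to which it gave an adjusted p. Both were lower in ndx1-4: BAN, the anthocyanidin reductase of the seed coat and a relative of TKPR1 and TKPR2, and ABCG13, a transporter of the flower cuticle. BAN had 269 and 528 counts in Col-0, against 48 and 54 in ndx1-4 (log2 fold change -3.07 ± 0.30, edgeR adjusted p = 0.0436), and ABCG13 had 865 and 1175 against 601 and 762 (-0.72 ± 0.10, edgeR adjusted p = 0.0794). The authors called both between genotypes as well. They also called DFR, a relative not tested here because neither tissue comparison lists it. DFR had 113 and 257 counts in Col-0, against 20 and 28 in ndx1-4.

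The genes whose values over the 4 libraries were most like the median profile of the 9 were sought among 7057 genes. The measure was the root mean square difference of log2 scaled counts, each centred on its own mean. The closest were FKD1 (AT3G63300) at 0.00839, AT5G43920 at 0.0110, AHL9 (AT2G45850) at 0.0111, AT5G23430 at 0.0142 and AT3G57470 at 0.0142. The 9 genes themselves were at 0.0564 (CYP704B1) to 0.296 (MS2), with a median of 0.119, and 1648 genes were closer than that median. With 4 libraries such a profile is shared by many genes, and the 9 genes were not a tight group by this measure.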

How the data were processed

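The 4 libraries (2 Col-0, 2 ndx1-4) were grouped, and replicates numbered, by the sample labels. The authors quantified single-end reads with Salmon, with correction for GC content, against Araport11 (TAIR10), and compared groups with DESeq2. The authors deposited, per gene and library, the estimated counts from Salmon as unnormalised whole numbers. They also deposited FPKM values, which are scaled separately in each table. Each table lists only genes past the authors' threshold for its comparison, so other genes are not analysed here. The tables also hold the authors' log2 fold changes, adjusted p-values and direction of change, and 8 columns of seedling samples of another series. None of these was used, nor was the table of transposable elements.

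Counts of genes in both tissue tables (8961 genes) were joined. For the 232 genes also in the genotype table the counts were identical in 232. Library scaling was the median ratio of counts to FPKM in the genotype table over 314 genes with at least 50 counts in every library, namely 1.20, 1.12 and 1.31 for Col-0 replicate 2 and ndx1-4 replicates 1 and 2 relative to Col-0 replicate 1. The test was edgeR 4.0.16 (glmQLFit and glmQLFTest, R 4.3.3) with genotype as the only term, on genes averaging 10 counts or more, called at a Benjamini-Hochberg adjusted p below 0.01. DESeq2 1.42.0, TMM and total count scaling, other count minimums, the genotype table added, a threshold of 0.05, a replicate block and leaving out each library were alternatives. The fits were tested on simulated data. Sequences and gene models came from RefSeq TAIR10.1, whose coordinates were identical for 13220 of 13220 nuclear genes of the tables. Similar genes were found with blastn 2.17.0. Python 3.11.15, pandas 2.3.3, numpy 2.4.6 and matplotlib 3.10.9 were also used.

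The 9 genes and the gene lists were chosen with earlier results of these data known. Named genes were NDX, the 9 genes, of each list those past the threshold or else the 2 with the highest mean count, and the 5 genes most like the median profile. LAP3, MS1, AP1, AGP11, ANX2, STK, CYP704A2, ABCG15, BAN, ABCG13 and DFR were named after their values were seen.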

Additional observations from a re-analysis of the deposited data

How the results depend on the processing

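Over all genes, edgeR called 7, DESeq2 199, edgeR with the genotype table added 22, with the replicate block 281 and at a threshold of 0.05 30. TMM gave 8, total counts 9, no count filter 8 and a mean of at least 50 counts 5. Leaving out each library gave 0 to 0 calls in edgeR, with 868 to 1499 genes at an unadjusted p below 0.05. Of the 9 sporopollenin genes, 0 were called by edgeR, 1 by DESeq2 and 1 with the replicate block, MS2 each time. The numbers were not taken to pair the libraries: only 2 pairs exist, and the labels name no shared source, although the replicate differences of the genotypes correlated at r = 0.455 across 7057 genes, which are not independent replicates. Of 99 log2 fold changes of the 9 genes under 11 alternatives, 94 kept their direction and side of the threshold. Where a library was left out no gene was called, so there only the direction could change. Leaving out each library, that of PKSB ranged from -0.026 to 0.18, of TKPR1 from -0.11 to 0.23 and of ABCG26 from -0.15 to 0.013, each changing direction only without Col-0 replicate 2, and the median of the 9 ranged from 0.080 to 0.37. The cause was not tested. The limit is 2 libraries per genotype and counts of 283 to 2598 for the 9 genes, and the number of calls also varies with the fit.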

Other observations

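The gene next to MS2 on the same strand, AT3G11990, begins 0.177 kb past its end, at positions 3817294 to 3817946 of chromosome 3. It had 71 and 92 counts in Col-0, against 160 and 174 in ndx1-4, which is a log2 fold change of 0.90 ± 0.19 (SE), with an adjusted p of 0.126 in edgeR and 0.0973 in DESeq2. The next tested genes on that side were AT3G12000, at 0.30 ± 0.20, and AT3G12010, at 0.02 ± 0.11, and the nearest tested gene on the other side was RRP5 (AT3G11964), 7.49 kb away, at 0.10 ± 0.09. These genes were looked up after the value of MS2 was seen.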
